A study of Homo sapiens with 8 samples.

Results

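SCEL, CPA4, FLG, TMEM40, DSC3, IVL, SPRR3, TGM2, S100A2 and LCE3D are 10 genes of cornification or squamous epithelium. They were picked by symbol from the 19124 genes of the series, some of them because earlier results of these data showed them higher after siRNAs against ribosomal proteins, and all 10 were found. The libraries came from HT29 and HCT116, established cell lines of human colorectal cancer, transfected with siRNA against RPL9, RPL17 or RPL27, proteins of the large ribosomal subunit, or with a negative control siRNA (NC). Every culture was grown in RPMI, received siRNA at 15 nM with Lipofectamine 2000 and was harvested 48 h later, NC cultures included. There was 1 library for each line and siRNA, 8 in all, so no siRNA was repeated within a line, and a single control sequence stood for NC.

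The cornified envelope is a sheath of cross-linked protein that replaces the plasma membrane of keratinocytes at the end of their differentiation. Transglutaminases join precursors such as involucrin, sciellin, loricrin and the small proline-rich and late cornified envelope proteins, while filaggrin bundles the keratin filaments beneath. Many of the precursors lie side by side in the epidermal differentiation complex on human chromosome 1, where FLG, LCE3D, IVL, SPRR3 and S100A2 of the present genes are found. The colon is lined by a simple epithelium that does not cornify.

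The label of cornified envelope genes raised by RPL siRNAs fitted some of the 10 and not others. Above NC in all 3 RPL siRNA libraries of HT29 were 6 of the 10 (38% of all listed genes), and in all 3 of HCT116 5 of the 10 (26.9%). In all 6 RPL siRNA libraries 5 genes lay above the NC library of their line (SCEL, CPA4, FLG, TMEM40 and DSC3), where 14.1% of all listed genes did. At least 2-fold above NC in all 6 were SCEL and CPA4 alone among the 10, where 0.418% of all listed genes were. LCE3D was listed at 0 in all 8 libraries, SPRR3 in 7 and IVL in 2, and S100A2 lay below NC in all 3 RPL siRNA libraries of HT29. Since the genes were chosen on the difference from NC, these values are a description and were not tested.

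The values are RPKM (reads per kilobase of transcript, scaled to library size). They act like a sum of exon RPKMs, so a gene is compared between libraries and not with another gene. Differences are given as log2 of (RPKM + 1) in 1 library over that in another, which understates changes of low genes. Of the 10 genes 7 averaged 1 RPKM or more across the 8 libraries and entered the fits over 14281 genes. IVL, SPRR3 and LCE3D did not, and FLG passed through its RPL siRNA libraries alone. The targeted ribosomal protein gene stood at 13.7% to 38.5% of NC, and at 29% to 34.1% of the mean of the other RPL siRNA libraries. The HT29 NC library stood apart. Its deviation was ranked with transcript length at a Spearman rho of -0.61 over 11114 genes, against 0.14 to 0.29 in the other 7 libraries. The median tested gene was 0.42 (log2) higher in the RPL siRNA libraries than in NC in HT29, and -0.02 in HCT116, and HT29 values are read against that shift. Centred on it, the mean HT29 differences from NC were 3.88 for SCEL, 2.25 for CPA4, 1.28 for FLG, 1.53 for DSC3, 0.45 for TGM2, 0.36 for TMEM40 and -1.93 for S100A2. Where it bears on them, HT29 differences from NC are also given with the trend with length removed, and the size of that trend at the length of the gene is stated.

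**Figure D1:**
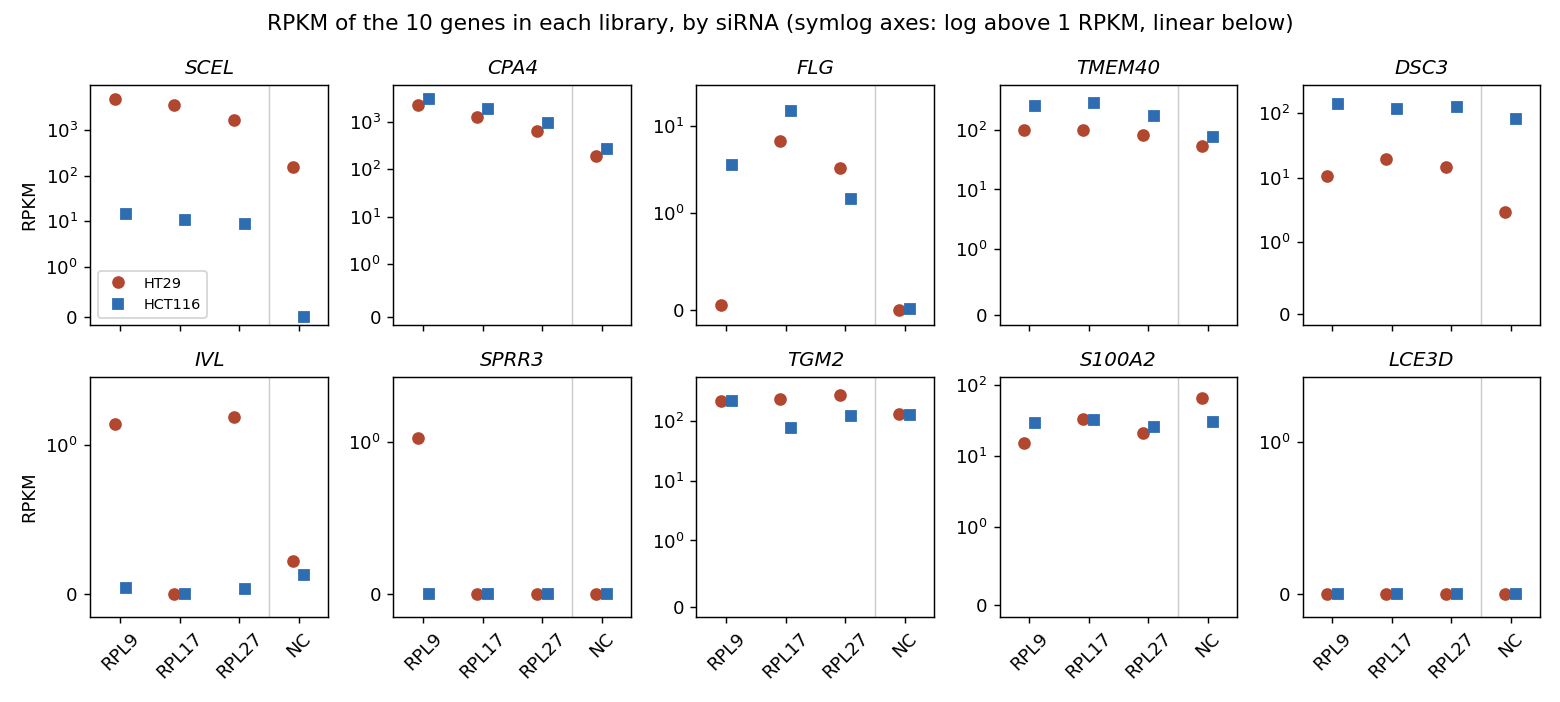
RPKM of each of the 10 genes (y axis, logarithmic above 1 RPKM and linear below) by siRNA (x axis), with circles for HT29 and squares for HCT116, 1 library each. SCEL and CPA4 are higher under each RPL siRNA than under NC, and LCE3D is at 0 throughout.

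SCEL encodes sciellin, a precursor that is built into the cornified envelope. In HT29 it stood at 4926 RPKM under RPL9, 3501 under RPL17 and 1667 under RPL27 siRNA, against 154 RPKM in NC. HCT116 had 14.4, 10.8 and 8.53 RPKM under the same siRNAs, against a listing at 0 in NC. All 3 RPL siRNA libraries thus lay above NC in each line, in the order RPL9, RPL17, RPL27. The HT29 levels came to 31.9, 22.7 and 10.8 times NC. No fold is given for HCT116, whose NC value is 0.

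CPA4 encodes a secreted metallocarboxypeptidase that removes C-terminal amino acids and is no structural part of the envelope. In HT29 it stood at 2270 RPKM under RPL9, 1218 under RPL17 and 617 under RPL27 siRNA, against 187 RPKM in NC. The HCT116 levels were 2944, 1828 and 913 RPKM, against 258 RPKM in NC. These came to 12.1, 6.5 and 3.29 times NC in HT29 and to 11.4, 7.08 and 3.54 times NC in HCT116. The order of the siRNAs was that of SCEL, and as deposited each siRNA gave nearly the same fold in both lines. That likeness depends on the HT29 NC library. As deposited, the mean log2 difference from NC was 2.667 in HT29 and 2.714 in HCT116. Centred on the median shift of each line, the means were 2.245 and 2.737. With the length trend removed they were 2.46 and 2.718. Whether the CPA4 difference from NC differed between the lines was not tested.

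The order RPL9 above RPL17 above RPL27 in both lines was shown by SCEL and CPA4 among the 10 genes, and by 4.21% of all listed genes. After the mean of each line was subtracted, SCEL and CPA4 had a Pearson correlation of 0.96 over the 8 libraries. These libraries share the same NC libraries and siRNAs, and the genes were picked for this rise. By the same measure the 3 genes most like SCEL among 11057 compared were NUAK2 (0.996), XPO6 (0.992) and UTP15 (0.992). Those most like CPA4 were PLCXD2 (0.997), ICOSLG (0.997) and ZNF286B (0.993). NUAK2, an AMPK-related kinase, stood at 27.8, 24.1 and 15.9 RPKM in HT29 under RPL9, RPL17 and RPL27 siRNA, against 6.0 RPKM in NC. In HCT116 it stood at 33.4, 28.1 and 25.7 RPKM, against 11.1 RPKM in NC.

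The promoters of SCEL and CPA4 are shown because these genes moved together across the libraries. That likeness rests in part on the rise for which they were picked, and other genes were closer to SCEL. The share of genes as close to SCEL as CPA4 was not computed, so nothing is read from the pairing. The windows run from 250 bases before to 50 after the annotated start and come from RefSeq on GRCh38.p14, which differs from the hg19 build of the deposited values. SCEL is at chr13:77535456-77535755 and CPA4 at chr7:130292911-130293210, both on the plus strand. Capitals mark TGACTCA, the AP-1 motif, or its reverse complement TGAGTCA.
SCEL: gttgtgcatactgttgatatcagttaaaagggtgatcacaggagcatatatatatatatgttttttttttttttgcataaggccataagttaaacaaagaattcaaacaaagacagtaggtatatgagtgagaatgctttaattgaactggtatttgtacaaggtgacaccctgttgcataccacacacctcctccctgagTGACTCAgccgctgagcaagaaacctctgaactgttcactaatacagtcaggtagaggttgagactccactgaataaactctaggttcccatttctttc
CPA4: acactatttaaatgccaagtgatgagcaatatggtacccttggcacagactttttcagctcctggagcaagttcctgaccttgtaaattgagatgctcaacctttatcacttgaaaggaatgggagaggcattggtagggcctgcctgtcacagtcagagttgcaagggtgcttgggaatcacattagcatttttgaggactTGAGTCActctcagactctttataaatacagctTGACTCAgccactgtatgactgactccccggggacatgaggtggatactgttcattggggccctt

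The SCEL window held 1 match, whose first base is at position -49 (position -1 is the base before the start), and the CPA4 window held 2, at positions -48 and -15. Of the 10 windows found for 9 of the genes, 5 held the motif on either strand, as did 4.95% of the 35116 promoter windows in the table. TGM2 was not matched. The other 3 matches were in IVL, SPRR3 and S100A2, which are shown because none of them was higher than NC across the RPL siRNA libraries.
IVL, chr1:152908296-152908595, plus strand, position -123: gatgcctgtggTGAGTCAggaaggggtta
SPRR3, chr1:153001499-153001798, plus strand, position -170: agggtggacagTGAGTCAggcccaggtga
S100A2, chr1:153565795-153566094, minus strand, position -52: ggagtgggctgTGACTCAcaggcatgtca
FLG, TMEM40, DSC3 and LCE3D had no match in their windows. The motif AACCGGTT of the grainyhead-like (GRHL) factors was in none of the 10 windows and in 0.134% of all windows. TTGCNNAA, a C/EBP motif (N is any base), was in 2 of the 10, those of SCEL and FLG, and in 10.5% of all. TTGCNNAA overlapped no AP-1 match. A match is a description of the letters and not of binding.

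The SCEL values in HCT116 were small beside those in HT29, at 0.293%, 0.309% and 0.512% of the HT29 level under RPL9, RPL17 and RPL27 siRNA and at 0% in NC. For comparison, 35 other genes were taken that had at least 50 RPKM in all 4 HT29 libraries and a mean level in HCT116 under 2% of the HT29 mean. The UGT1A genes, which share exons, were left out. These 35 genes stood in HCT116 at a median of 0.535%, 0.11% and 0.259% of their HT29 level under RPL9, RPL17 and RPL27 siRNA and at 0.307% in NC. Their quartiles ran from 0.207% to 1.11% (RPL9), 0% to 0.454% (RPL17), 0.085% to 1.01% (RPL27) and 0.0163% to 1.38% (NC). The 3 SCEL values under RPL siRNAs lay inside these ranges and the NC value below its range. The 35 genes were chosen for their low level in these same HCT116 libraries. Their low percentages follow from that choice, so nothing is read from where SCEL lay among them. Whether reads carried over between libraries contributed to SCEL in HCT116 was not tested.

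**Figure D2:**
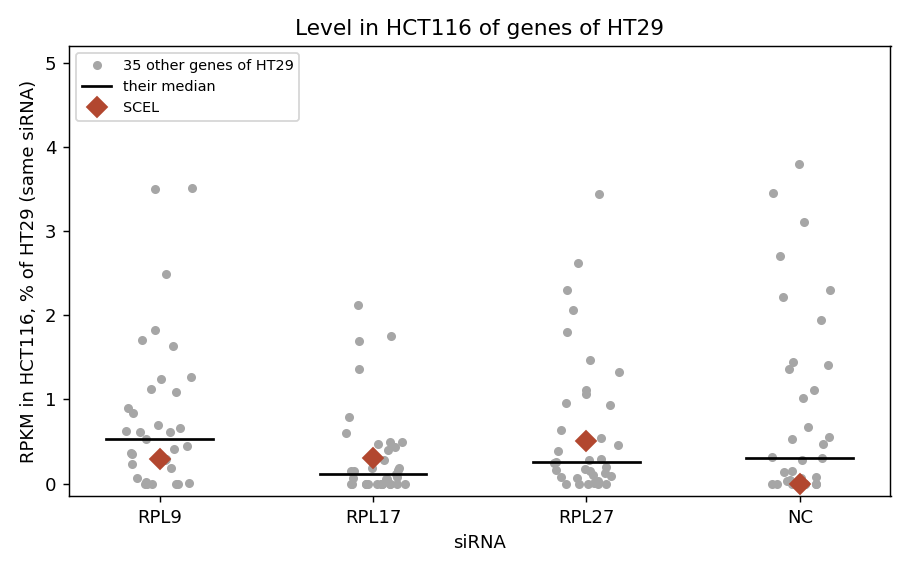
Level in HCT116 as a percentage of the level in HT29 under the same siRNA (y axis) for each siRNA (x axis), with grey points for the 35 other genes, bars for their median and diamonds for SCEL. SCEL is at 0.293% to 0.512% under the RPL siRNAs and at 0 in NC, within the spread of the other genes. Those genes were chosen for a low mean level in HCT116, so their low percentages follow from the choice.

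FLG encodes profilaggrin, the precursor of the filaggrin that bundles keratin filaments. It was a low gene in every library. HT29 had 0.048 RPKM under RPL9, 6.71 under RPL17 and 3.24 under RPL27 siRNA, against 0 in NC. HCT116 had 3.52, 14.6 and 1.43 RPKM, against 0.0073 RPKM in NC. RPL17 siRNA gave the highest value in each line, while HT29 under RPL9 siRNA was close to NC. The log2 differences ran from 0.07 to 2.95 in HT29 and from 1.27 to 3.95 in HCT116, and they depend on the pseudocount, with a mean of 5.34 in HCT116 at 0.1 and of 1.03 at 5. At the length of this transcript (12747 bases) the HT29 NC library stood at -1.66 (log2) against the other HT29 libraries. The mean difference in HT29 was 1.70, and 1.55 after the length trend was removed. That removal leaves an NC value of 0 unchanged.

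The choice of HRNR, KRT1 and KRT4 for comparison with FLG was made with their values known. HRNR, a filaggrin-like gene of the same complex, stood at 0.622, 1.71 and 0.857 RPKM in HT29 under RPL9, RPL17 and RPL27 siRNA, against 0.019 RPKM in NC, and at 0.837, 2.84 and 2.6 RPKM in HCT116, against 0.078 RPKM in NC. KRT1, a keratin of the upper epidermis, stood at 11.7 RPKM under RPL17 siRNA in HCT116 and at 0.052 to 0.689 RPKM in the other libraries of that line. KRT4, a keratin of wet squamous epithelia, stood at 24.4 RPKM under RPL17 siRNA in HCT116 and at 0 to 3.11 RPKM in its other libraries. In HT29 both keratins were highest under RPL27 siRNA, at 5.37 and 10.2 RPKM. KRT15, KRT10 and KRT13 went the other way in HCT116, with their lowest RPL siRNA value under RPL17. FLG2 stayed at or below 1.29 RPKM and RPTN at or below 0.013 RPKM. FLG overlaps the antisense gene FLG-AS1 and SCEL overlaps SCEL-AS1. The library kit does not mark strand, so reads of these partners cannot be told apart.

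The remaining envelope precursors gave almost no signal. IVL encodes involucrin, an early scaffold of the envelope. It stood at 1.44 and 1.62 RPKM in HT29 under RPL9 and RPL27 siRNA and at 0 under RPL17 siRNA, against 0.227 RPKM in NC. In HCT116 it stayed at or below 0.0427 RPKM under the RPL siRNAs, against 0.131 RPKM in NC. SPRR3, a small proline-rich precursor, was listed above 0 in HT29 under RPL9 siRNA alone, at 1.07 RPKM. That library was also the one with the highest SPRR1B and SPRR1A, neighbours of SPRR3, at 5.12 and 2.73 RPKM. LCE3D, a late cornified envelope protein, was listed at 0 in every library.

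TGM2 encodes tissue transglutaminase, a widely expressed relative of the transglutaminases that cross-link the envelope in skin. Its HT29 levels were 220, 231 and 273 RPKM under RPL9, RPL17 and RPL27 siRNA, against 131 RPKM in NC. Its HCT116 levels were 215, 76.1 and 119 RPKM, against 126 RPKM in NC. The libraries above NC were all 3 of HT29 and that of RPL9 siRNA in HCT116. The mean difference in HT29 was 0.87 and went to -0.03 after the length trend was removed, since at the length of this transcript (5070 bases) the HT29 NC library read lower than the other HT29 libraries by 0.91 (log2). TGM2 overlaps RPRD1B on the other strand.

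DSC3 encodes desmocollin 3, a cadherin of desmosomes in stratified epithelia. The HT29 libraries held 10.4, 19.6 and 14.5 RPKM under RPL9, RPL17 and RPL27 siRNA, against 2.97 RPKM in NC. The HCT116 libraries held 135, 116 and 124 RPKM, against 79.3 RPKM in NC. No RPL siRNA library fell to the level of NC in either line. The mean differences were 1.95 in HT29 and 0.65 in HCT116. After the length trend was removed they were 0.92 and 0.69, as the HT29 NC library read lower by 1.25 (log2) at the length of this transcript (6939 bases).

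S100A2 encodes a calcium-binding EF-hand protein found in basal keratinocytes. In HT29 it stood at 15.4, 33.5 and 21.4 RPKM under RPL9, RPL17 and RPL27 siRNA, against 65.5 RPKM in NC. The HCT116 levels were 29.6, 32.0 and 25.6 RPKM, against 30.3 RPKM in NC. The 3 HT29 libraries lay below NC and those of HCT116 on both sides of it. The mean difference in HT29 was -1.51, and -0.96 after the length trend was removed, as the HT29 NC library read higher by 0.57 (log2) at this short length (998 bases).

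TMEM40 encodes a transmembrane protein. In HT29 it stood at 98.6, 100.1 and 82.0 RPKM under RPL9, RPL17 and RPL27 siRNA, against 53.9 RPKM in NC. In HCT116 it stood at 254, 288 and 175 RPKM, against 75.6 RPKM in NC. All 6 RPL siRNA libraries lay above NC, with mean differences of 0.78 in HT29 and 1.62 in HCT116, or 0.71 and 1.61 after the length trend was removed. In HT29 the mean was 0.36 under quantile normalization too. Whether the difference from NC itself differed between the lines was not tested.

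Counted by library, the genes at least 2-fold above NC were 4, 4 and 6 of 10 in HT29 under RPL9, RPL17 and RPL27 siRNA, where 17.7%, 17.9% and 18.1% of all listed genes were. In HCT116 they were 4 of 10 under each siRNA, where 5.52%, 4.15% and 4.8% of all listed genes were. In all 3 libraries of a line at once they were SCEL, CPA4 and DSC3 in HT29 (12.2% of all listed genes) and SCEL, CPA4, FLG and TMEM40 in HCT116 (1.45%). With the length trend removed the HT29 counts were 3, 4 and 4 of 10, where 10.3%, 9.78% and 9.71% of genes with a length were, and DSC3 reached 2-fold in 1 HT29 library alone. The background in HT29 was higher than in HCT116, and the HT29 NC library is part of every HT29 count. As the choice of genes used this contrast, nothing is read from the counts.

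**Figure D3:**
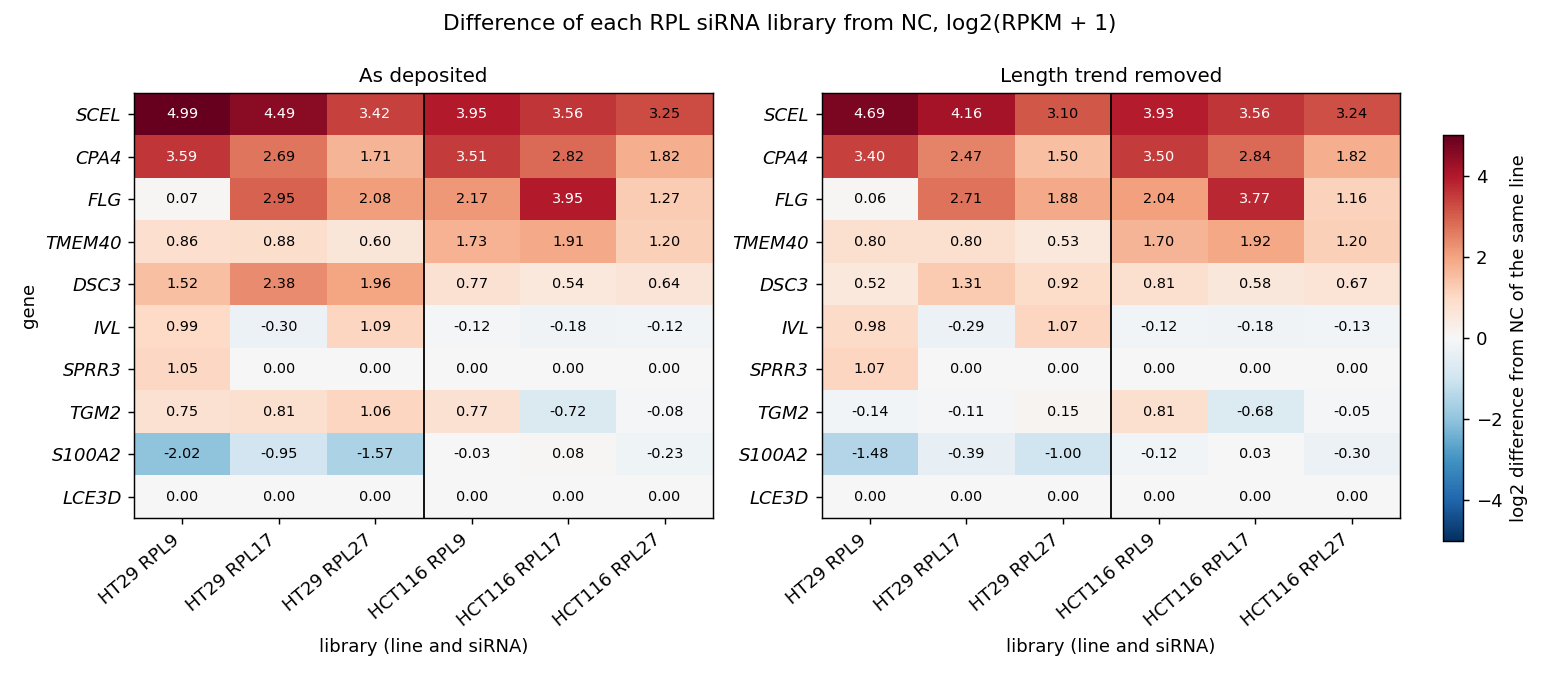
Log2 difference of each RPL siRNA library (columns) from the NC library of its line for the 10 genes (rows), as deposited (left) and with the trend with transcript length removed (right); red is higher and blue lower than NC. SCEL and CPA4 are above 1 in all columns of both panels, while the HT29 values of TGM2 and DSC3 are smaller in the right panel.

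The RPL siRNAs were then set against each other, which leaves out the NC libraries. A limma fit on the 6 RPL siRNA libraries with terms for line and siRNA set each siRNA against the average of the other two, with the lines as replicates. CPA4 was higher under RPL9 siRNA than under RPL17 and RPL27 siRNA by 1.29 (log2; SE 0.07; adjusted p = 0.00477), with 1.39 in HT29 and 1.19 in HCT116. It was lower under RPL27 siRNA than under RPL9 and RPL17 siRNA, at -1.39 (log2; SE 0.07; adjusted p = 0.0027), with -1.43 in HT29 and -1.34 in HCT116. CPA4 was the 1 gene called among the 7 tested in these comparisons, where 0.707% of tested genes were called for RPL9 and 1.25% for RPL27. The differences from NC known when CPA4 was chosen rest in part on the same 6 libraries, so the test is not wholly independent of the choice. The RPL9 call was lost without either RPL17 siRNA library, and the RPL27 call without the HCT116 RPL27 siRNA library. Both calls were lost with all 8 libraries in the fit, with no line term, with no filter and without the variance trend. CPA4 kept its direction in all these settings, with 1.19 to 1.39 for RPL9 and -1.44 to -1.34 for RPL27, at adjusted p values of 0.00119 to 0.861 and 0.000494 to 0.465.

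SCEL had the same signs without passing the threshold. Its difference was 0.78 (SE 0.19; adjusted p = 0.111) for RPL9 siRNA and -0.91 (SE 0.19; adjusted p = 0.0921) for RPL27 siRNA, larger in HT29 (1.03 and -1.32) than in HCT116 (0.54 and -0.50). FLG stood at 2.05 for RPL17 siRNA (SE 0.61; adjusted p = 0.171), with 1.87 in HT29 and 2.23 in HCT116. TMEM40 stood at 0.30 for RPL17 siRNA (SE 0.13; adjusted p = 0.305) and at -0.45 for RPL27 siRNA (SE 0.13; adjusted p = 0.161). For RPL17 siRNA 0 of the 7 genes and 0.42% of all tested genes were called by limma, with FLG at an unadjusted p under 0.05. TGM2 took opposite signs in the lines for RPL9 siRNA, at -0.19 in HT29 and 1.17 in HCT116, and DSC3 likewise, at -0.65 and 0.17.

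**Figure D4:**
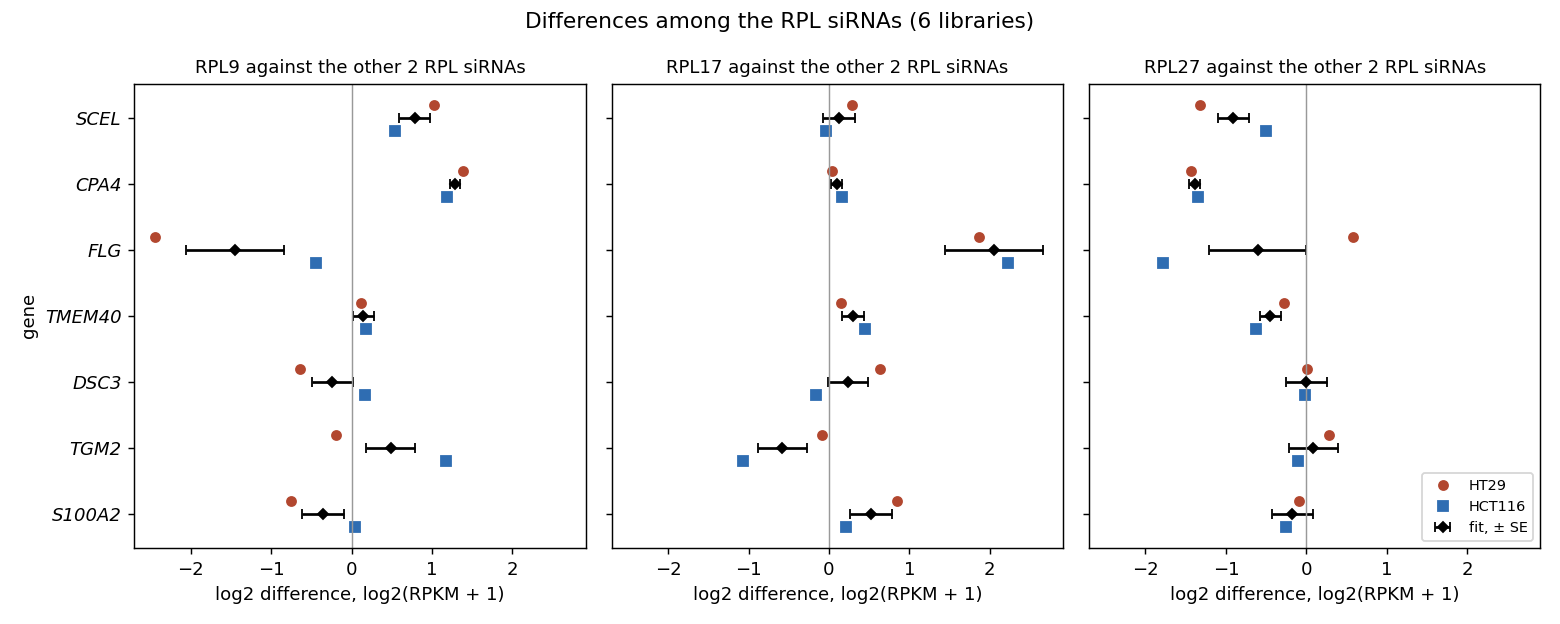
Log2 difference of each RPL siRNA from the mean of the other two (x axes) for the 7 tested genes (y axis), with diamonds and bars for the fitted value ± SE over both lines, circles for HT29 and squares for HCT116. CPA4 is at 1.29 for RPL9 and -1.39 for RPL27 siRNA with the lines close together, and FLG has the widest errors.

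The lines were compared over the same 6 libraries, with siRNA as a term. The difference between the lines was not the basis for choosing the genes. The differences from NC that were used rest in part on these libraries, so the test is not wholly independent of the choice. Of the 7 tested genes 4 differed between HT29 and HCT116, where 22.9% of all tested genes did (11.7% higher and 11.1% lower in HT29). SCEL was higher in HT29 by 7.99 (log2; SE 0.18; adjusted p = 8.41e-05), and by 7.28 in the NC libraries. SCEL was listed at 0 in HCT116 NC, so the value of 7.28 depends on the pseudocount. DSC3 was lower in HT29, at -3.04 (SE 0.24; adjusted p = 0.00102), with -4.34 in the NC libraries. That NC value has no length correction. At the length of DSC3 the HT29 NC library stood at -1.25 (log2) against the other HT29 libraries. Whether the DSC3 difference between the lines changed under the RPL siRNAs was not tested. TMEM40 was lower in HT29, at -1.32 (SE 0.12; adjusted p = 0.00191), as was CPA4, at -0.51 (SE 0.06; adjusted p = 0.00448), each under 3 of 3 RPL siRNAs. In the NC libraries they stood at -0.48 and -0.46.

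TGM2 stood higher in HT29 by 0.94 (SE 0.29; adjusted p = 0.0664), with 0.03, 1.59 and 1.19 under RPL9, RPL17 and RPL27 siRNA. FLG at -0.77 (SE 0.57; adjusted p = 0.375) and S100A2 at -0.36 (SE 0.25; adjusted p = 0.336) did not pass either. TGM2 kept that outcome in 12 of 16 other settings of the limma fit and was called in the rest. Its adjusted p ran from 0.00607 to 0.287 over them. With all 8 libraries in the fit SCEL and DSC3 were still called, while CPA4 and TMEM40 were not. The CPA4 call was also lost with no filter on low values and without the variance trend. The adjusted p over the other settings ran from 0.00201 to 0.093 for CPA4 and from 0.000701 to 0.0566 for TMEM40. Only cultured lines were measured, and in such bulk libraries fewer expressing cells and less RNA per cell cannot be told apart.

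The wider set of cornification and squamous genes, 137 genes in 8 lists that hold none of the 10, shows how far the pattern extended. The limma fit of RPL siRNAs, averaged, against NC on all 8 libraries tested 70 of them and called 0 at an adjusted p under 0.05, where it called 0.168% of all tested genes. At an unadjusted p under 0.05 it had 18 higher and 3 lower, where 14.9% of all tested genes were higher and 9.7% lower. The median difference was 0.25, or 0.15 with the length trend removed, against 0.10 and -0.02 over all tested genes. With the length trend removed, 7 of 69 were called, where 6.19% of all tested genes were called. Without the HT29 NC library they were 16 of 70 (12.9% of all tested genes), and without the HCT116 NC library 30 of 70 (48.6%). In these last fits NC is a single library, assumed to vary like the others.

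Among regulators of squamous differentiation, 15 of 20 were tested and had a median of 0.76, with 1.02 in HT29 and 0.04 in HCT116, and 0.17 with the length trend removed. GRHL3, a factor needed for formation of the epidermal barrier in mice, had the largest difference. It stood at 95.1, 69.5 and 36.5 RPKM in HT29 under RPL9, RPL17 and RPL27 siRNA, against 17.5 RPKM in NC. HCT116 had 15.8, 18.3 and 7.73 RPKM, against 2.01 RPKM in NC. The mean difference was 2.00 (SE 0.27; adjusted p = 0.0662), which passed with the length trend removed. KLF4 stood at 0.16 (adjusted p = 0.695) and ZNF750 at -0.05 (adjusted p = 0.952). TP63, the master factor of stratified epithelia, stayed at or below 0.761 RPKM in all libraries.

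The desmosome list had 10 of 13 genes tested and a median of 0.55, with 0.74 in HT29 and 0.33 in HCT116, and 0.25 with the length trend removed. DSC2, DSG2, PKP2, JUP, PERP and CDSN lay above NC in all 6 RPL siRNA libraries, where 14.1% of all listed genes did. With the length trend removed the HT29 means were -0.11 for PERP, 0.20 for PKP2 and 1.19 for CDSN, and JUP had no matched length. DSG2 differed by 2.51 in HT29 and 0.22 in HCT116, DSC2 by 2.16 and 0.40, and the plakin gene DSP by 2.81 and 0.06. After the length trend was removed the HT29 values were 1.43, 1.32 and 1.45. JUP (plakoglobin) stood at 0.46 (SE 0.13; adjusted p = 0.132). PKP3 stood at 0.24 and DSG3 at 0.19, and PKP1 stayed at or below 5.53 RPKM.

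Of 40 other envelope precursors, 13 were at 0 in every library, 36 never reached 10 RPKM and 7 were tested, with a median of 0.08 (0.64 in HT29 and -0.14 in HCT116), or -0.33 with the length trend removed. LOR, the gene of loricrin, stayed at or below 0.242 RPKM, and SPRR2A and SPRR2D at or below 0.281 RPKM. CSTA (cystatin A, a protease inhibitor of the envelope) stood at 23.6, 18.1 and 19.3 RPKM in HT29 under RPL9, RPL17 and RPL27 siRNA, against 117.8 RPKM in NC. The HCT116 values were 50.3, 39.5 and 41.4 RPKM, against 101.1 RPKM in NC. All 6 libraries lay below NC, with a mean difference of -1.84 (SE 0.33; adjusted p = 0.0778), which passed with the length trend removed. Of the transglutaminases TGM1 and TGM4 were tested, with TGM1 at -0.07.

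**Figure D5:**
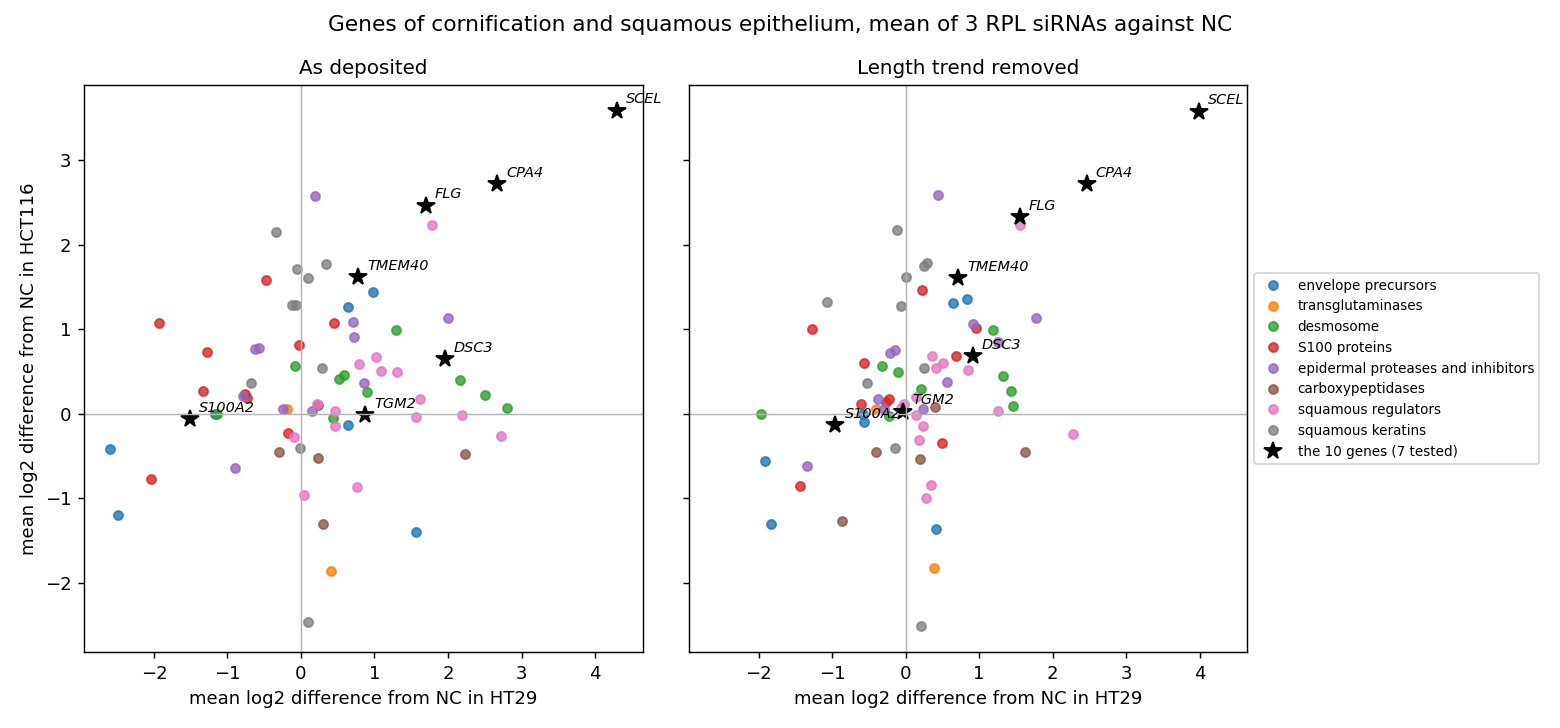
Mean log2 difference of the 3 RPL siRNA libraries from NC in HT29 (x axis) and HCT116 (y axis) for the tested genes of the 8 lists (coloured points) and for the 7 tested genes of the 10 (stars), as deposited (left) and with the length trend removed (right, without genes that lack a length). SCEL and CPA4 are the points above 2 on both axes of both panels.

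The S100 list had 10 of 15 genes tested. Their median was -0.27, with -0.75 in HT29 and 0.50 in HCT116, and -0.001 with the length trend removed. S100A11 and S100A16 were called higher and 0 lower with that trend removed. S100A16 lay above NC in all 6 RPL siRNA libraries as deposited. Among the 18 epidermal proteases and inhibitors 11 were tested, with a median of 0.11 (0.16 in HT29 and 0.76 in HCT116), or 0.30 with the length trend removed. SERPINB5 (maspin) stood at 326, 286 and 293 RPKM in HT29 under RPL9, RPL17 and RPL27 siRNA, against 74.4 RPKM in NC. In HCT116 it stood at 339, 285 and 365 RPKM, against 149 RPKM in NC. Its mean difference was 1.57 (SE 0.24; adjusted p = 0.0686). The kallikrein gene KLK6 stood at 0.90 (SE 0.22; adjusted p = 0.107) and KLK10 at 0.61 (SE 0.26). SERPINB5, KLK6 and KLK7 passed with the length trend removed. Of the other carboxypeptidase genes 5 of 12 were tested, and limma called none at an adjusted p, or at an unadjusted p, under 0.05, with a median of -0.15 (0.24 in HT29 and -0.48 in HCT116). CPM stood at -0.50 (SE 0.41). CPD stood at 567, 770 and 798 RPKM in HT29 under RPL9, RPL17 and RPL27 siRNA, against 150 RPKM in NC. In HCT116 it was at 564, 872 and 773 RPKM, against 1012 RPKM in NC, so that it lay above NC in HT29 and below it in HCT116.

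The squamous keratins had 10 of 13 genes tested and a median of 0.60, with -0.03 in HT29 and 1.29 in HCT116. KRT17 stood at 9.0 to 40.7 RPKM under the RPL siRNAs in HT29, against 21.0 RPKM in NC, and at 1.3 to 5.2 RPKM in HCT116, against 0.083 RPKM in NC. Of the keratins of basal stratified epithelium, KRT5 stayed at or below 4.97 RPKM and KRT14 at or below 2.03 RPKM in all libraries. KRT15, another basal keratin, was present in every library, at 119, 103 and 234 RPKM in HT29 under RPL9, RPL17 and RPL27 siRNA, against 154 RPKM in NC. In HCT116 it was at 259, 236 and 431 RPKM, against 122 RPKM in NC. Sums over a list are compared between libraries only. The colon epithelium list had a summed level of 44175 to 50376 RPKM under the RPL siRNAs in HT29, against 44631 RPKM in NC. In HCT116 the sum was 29132 to 31258 RPKM, against 19417 RPKM in NC. Most of the summed RPKM was listed under the keratin genes KRT8, KRT18 and KRT19, which other simple epithelia also express. That describes the sum and is not read as a ranking of genes. CDX1 stayed at or below 0.082 RPKM, and CDH17 lay below NC in all 6 RPL siRNA libraries, at or below 8.28 RPKM throughout. The 11 tested genes of the 12 in this list had a median of 0.34, and VIL1 and LGALS4 stayed under 2% of their mean HT29 level in HCT116.

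Markers of other cell types were low, apart from single genes. The 8 fibroblast genes summed to 257.0 to 439 RPKM under the RPL siRNAs in HT29, against 337 RPKM in NC, and to 355 to 428 RPKM in HCT116, against 380 RPKM in NC. COL1A1 was the 1 gene of the 8 that reached 10 RPKM. The 8 leukocyte genes summed to 2485 to 3068 RPKM in HT29, against 1941 RPKM in NC, with LYZ at 2302 to 3001 RPKM, against 1844 RPKM in NC, and to 104 to 153 RPKM in HCT116, against 122.0 RPKM in NC. The 5 endothelial genes all stayed under 10 RPKM. Medians of the tested genes were 0.12 for fibroblast, 0.36 for leukocyte and -0.25 for endothelial markers, and their part in the results was not tested.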

How the data were processed

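CASAVA 1.8.2, TopHat2 2.0.9 and the build hg19 are named in the submitters' processing notes. The authors deposited 1 RPKM value per gene symbol and library; how reads were counted per gene is unstated in the labels. RPKM multiplied by transcript kb summed to 16.86 M (mega) in HT29 NC and 21.22 to 21.61 M in the other libraries, and to 1.67 to 1.74 M after division by exon number. Read counts were not analysed here, so depth is unknown and no counting interval is given.

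The 10 genes, the lists and the tests were chosen with earlier results of these data known. S100A11, S100A16 and KLK7 were named after their values were seen, as were others given below. Values were taken as log2(RPKM + 1). Genes averaging 1 RPKM or more across 8 libraries were tested with limma 3.58.1 (trend) in R 4.3.3, with terms for line and siRNA, two-sided, adjusted over all tested genes (Benjamini-Hochberg, threshold 0.05). The fit of 6 libraries leaves 2 residual degrees of freedom and that of 8 leaves 3; the replicates are lines or different siRNAs, and the code was tested on simulated data. Length trends (spline, 5 degrees of freedom, genes averaging 10 RPKM or more) used GENCODE 29 lengths of 18346 genes matched by RefSeq accession. Named genes were the 10, listed genes past the threshold against NC (at most 6 per list and direction), genes named with the lists, and the 3 genes most like SCEL and CPA4 (among genes averaging 10 RPKM or more in both lines); HRNR, TGM4, KRT1, KRT4, KRT5, KRT8, KRT10, KRT13, KRT14, KRT15, KRT18, KRT19, FLG2, RPTN, CSTA, PKP2, PERP, CDSN, CPD, CDX1, CDH17, VIL1, LGALS4, COL1A1 and LYZ were named after their values were seen.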

Additional observations from a re-analysis of the deposited data

Results flagged for a closer look

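In 7 named genes every RPL siRNA library of HT29 lay on one side of NC and every one of HCT116 on the other. None is among the 10 genes, and whether the lines differed in their difference from NC was not tested. The share of all listed genes with this pattern was not computed, so nothing is read from the count of 7. CPD and LGALS4 were named after their values were seen. PPL (periplakin, an envelope plakin) stood at 1.56 in HT29 and -1.41 in HCT116 as mean log2 differences from NC, 2.97 apart, and at 0.42 and -1.37 after the length trend was removed. EVPL (envoplakin) stood at 0.64 and -0.14, 0.78 apart, and at -0.56 and -0.10 after the length trend was removed, so that the lines no longer lay on opposite sides. S100A6 stood at -0.47 and 1.58 (-2.05 apart), and at 0.22 and 1.46 after removal, again on one side. S100A14 stood at -0.76 and 0.24 (-1.0 apart), or -0.22 and 0.17. ZNF750, a regulator of epidermal differentiation, stood at 0.76 and -0.87 (1.64 apart), or 0.35 and -0.84. The carboxypeptidase gene CPD stood at 2.23 and -0.48 (2.71 apart), or 1.62 and -0.45. LGALS4, a galectin gene of colon epithelium, stood at -0.72 and 2.20 (-2.92 apart), or -0.42 and 2.24. Each value in HT29 uses the NC library that stood apart in its trend with length.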

How the results depend on the processing

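The labels give no replicate numbers to pair by. Libraries share a line or an siRNA, which the fits hold as terms, so the comparison of the lines was paired by siRNA. The limits are the single library per line and siRNA, the HT29 NC library and low levels in 3 to 4 of the 10 genes. Against NC, other cornification genes called went from 0 to 7 with the length trend removed (6.19% of all tested genes called), and ran from 0 to 30 with 1 library left out, the 30 without HCT116 NC, where 48.6% of all tested genes were called. CPA4 was the call for RPL9 and for RPL27 siRNA, and both counts of 1 became 0 with no filter on low values, limma without trend, no cell line term and all 8 libraries in the fit; with 1 library left out they ran from 0 to 1. The count of 4 between the lines became 2 with all 8 libraries in the fit, 3 with no filter and 5 under quantile normalization, and ran from 4 to 5 with 1 left out. Genes at least 2-fold above NC in HT29 under RPL9 siRNA were 2 in place of 4 at a pseudocount of 5. Median-centring and robust variances left these counts of calls as they were.

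Values that passed no threshold changed sign as follows. DSC3 for RPL27 siRNA (0.003) stood at -0.004 at a pseudocount of 5, -0.012 under quantile normalization and -0.006 with the length trend removed, and S100A2 between the lines at 0.002 with all 8 libraries. With 1 library left out, DSC3 ran from -0.646 to 0.172 (RPL9), -0.162 to 0.631 (RPL17) and -0.202 to 0.207 (RPL27), TGM2 from -0.188 to 1.169 (RPL9) and -0.252 to 0.426 (RPL27), S100A2 from -0.758 to 0.047 (RPL9) and -0.374 to 0.029 (RPL27), SCEL from -0.079 to 0.329 (RPL17) and FLG from -1.786 to 0.576 (RPL27). The cause was not tested. With no filter, limma called 0 of all genes for each of the 3 siRNAs.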
